A study of Homo sapiens with 6 samples.

Results

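Sterol and fatty acid synthesis genes were examined in the human endometrial cancer line AN3CA, an established line that expresses the transcription factor *PAX2*. RNA-seq of 3 libraries from cells carrying the empty vector (Sh_EV in the labels, shEV here, genotype WT) was set against 3 libraries from cells carrying a hairpin against *PAX2* (Sh_PAX2 in the labels, shPAX2 here, genotype PAX2 KD). All cells were selected with puromycin and grown in MEM with serum, 1 hairpin sequence stood for the knockdown, and the study's text in places calls the control scrambled. The study asked what loss of *PAX2* does in endometrial cancer cells, and the labels do not say whether replicates 1 to 3 of a group were separate cultures, so p-values measure the spread between these libraries, which may be technical. The genes were 39 of the 17471 in the table: 5 regulators of the SREBP pathway, 18 genes of the cholesterol arm, 14 of the fatty acid arm and 2 sterol efflux genes. The table held 38 of them under the symbols used here and 1, *SC5D*, under the older symbol *SC5DL*. The list was put together with earlier results of these libraries in view, and was chosen by the higher level of *SCD* in shPAX2 together with pathway membership. The differences between the groups are therefore a description of these genes and are not support for any statement about the list.

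SREBP transcription factors are made as membrane proteins of the endoplasmic reticulum. When sterols are scarce, SCAP carries them to the Golgi, where proteases release the active part, and INSIG proteins hold SCAP back when sterols are plentiful. SREBP2 (*SREBF2*) is known mainly for the genes of cholesterol synthesis and SREBP1 (*SREBF1*) for those of fatty acid synthesis, and both pathways start from acetyl-CoA. Many of their target promoters also hold a CCAAT box, which binds the factor NF-Y.

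Values are TPM, which scale the reads of a gene by its length and by the library total, so that levels can be compared between genes. Depth, recovered from the values as whole reads, was 10730909 to 18221859 reads in the shEV libraries and 19422615 to 29405787 in the shPAX2 libraries, so depth and group moved together. *PAX2* had 4.03, 3.66 and 2.74 TPM in replicates 1 to 3 of shEV and 0.916, 0.723 and 1.17 TPM in those of shPAX2. Its shPAX2 mean was 26.9% of the shEV mean (log2 fold change -1.47, SE 0.18, limma adjusted p 0.000294), which matched the labels. The labels call the cells epithelial, but *EPCAM*, *KRT8*, *KRT19* and *CDH1* were each at most 0.387 TPM in a library, while *KRT18* ran from 10.2 to 17.5 TPM. Markers of mesenchymal cells were also split. *VIM* ran from 3749.9 to 4410.5 TPM, while *CDH2* was at most 0.0777 TPM and *FN1* at most 0.827 TPM. Of markers of other cell types, the leukocyte gene *PTPRC* was at 0 in 5 libraries and at most 0.0138 TPM, and *COL1A1* and *PDGFRB* were at most 1.48 TPM. *COL3A1*, a collagen of connective tissue, moved with the groups, at 25.8 to 41.2 TPM in shEV and 235.9 to 248.1 TPM in shPAX2, and took the summed level of these markers from 28.3 to 43.0 TPM in shEV and 237.5 to 249.6 TPM in shPAX2. Its part in the results below was not tested, and in bulk RNA fewer cells of a type and less RNA per cell cannot be told apart.

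Genes with at least 0.5 TPM in at least 3 libraries were tested, which kept 37 of the 39 members. A gene passed when its limma adjusted p, corrected over all 13163 genes tested, was under 0.05. Of the 37, 22 passed, 15 higher and 7 lower in shPAX2. Among all genes tested, 42.8% passed, 12.2% higher and 30.5% lower, and the median log2 fold change was -0.10. No member passed with a log2 fold change of 1 or more in either direction, against 4.54% of all genes. The TPM of shPAX2 and shEV did not overlap in 25 of the 37, against 54.9% of all genes. The split into higher and lower genes depended on the scaling. Median-of-ratios scaling moved the median of all genes to 0.01 and gave 2867 higher and 2579 lower genes in place of 1612 and 4017. A permutation test of 1 gene over 3 against 3 libraries cannot go below a two-sided p of 0.1.

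**Figure D1:**
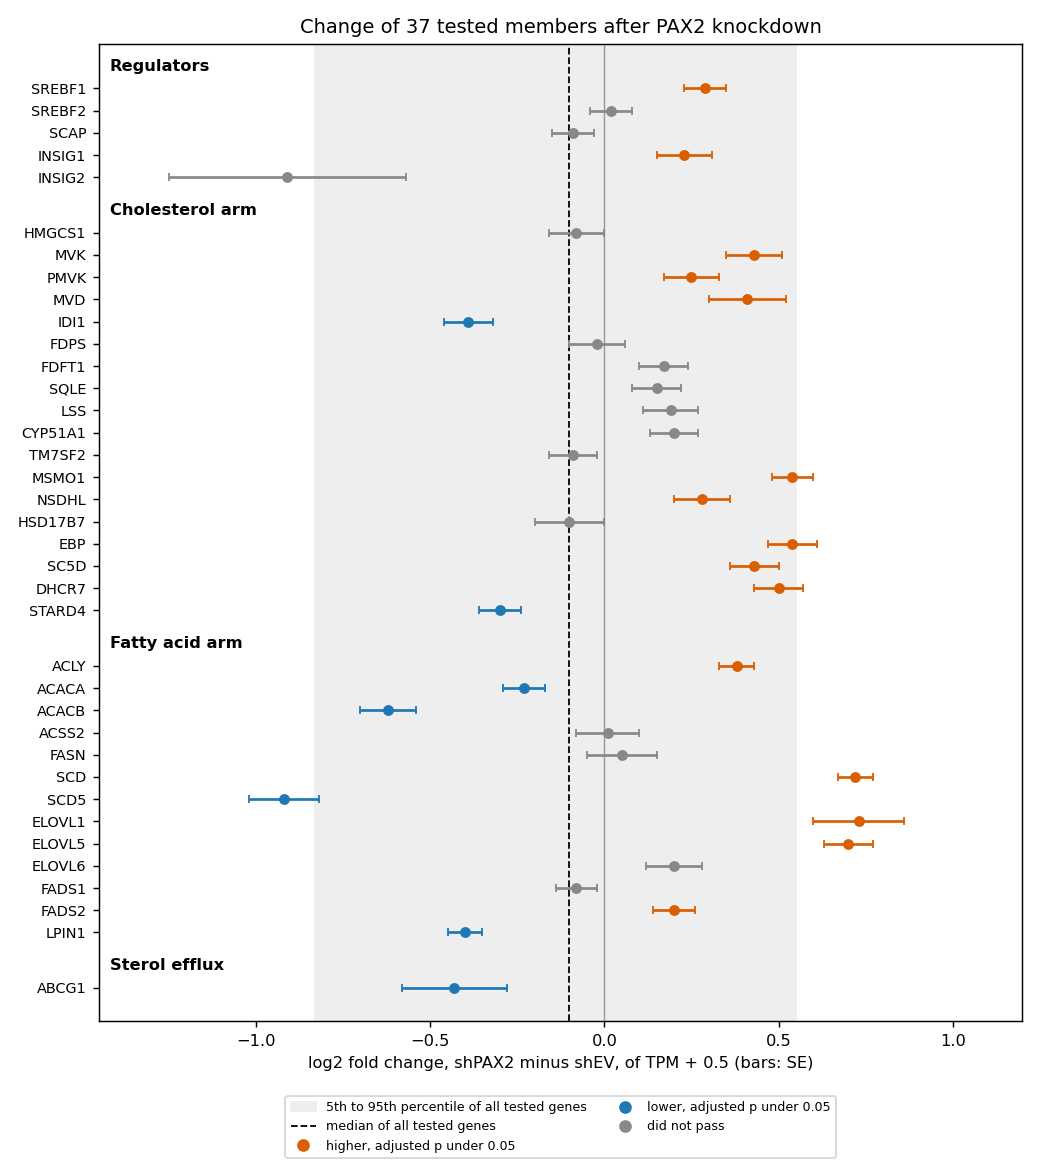
Log2 fold change of TPM + 0.5 (x axis, shPAX2 minus shEV, bars are SE) for the 37 tested members (y axis), each arm in the order of the list. Orange and blue mark genes higher and lower at a limma adjusted p under 0.05, grey those that did not pass; the dashed line is the median of all genes tested (-0.10) and the band the middle of their range (-0.83 to 0.55, with 1 gene in 20 beyond each end). *ELOVL1*, *SCD* and *ELOVL5* lie to the right of the band, and *SCD5* and *INSIG2* to its left.

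Of the 5 regulators 2 rose, none fell and 3 did not pass, so 40% passed, near the 42.8% of all genes tested. *SREBF1*, which encodes SREBP1, rose and *SREBF2*, which encodes SREBP2, did not pass. *SREBF1* stood, in replicates 1 to 3, at 65.6, 65.2 and 64.3 TPM in shEV and at 83.7, 79.5 and 75.7 TPM in shPAX2. All shPAX2 libraries lay above all shEV libraries, with a log2 fold change of 0.29 (SE 0.06). *SREBF2* stood at 74.1, 68.2 and 70.7 TPM in shEV and at 75.2, 70.8 and 69.8 TPM in shPAX2. The groups overlapped, with a log2 fold change of 0.02 (SE 0.06). *SCAP*, the escort protein of the SREBPs, stood at 48.1, 51.0 and 48.5 TPM against 43.1, 48.1 and 47.5 TPM and also overlapped (-0.09, SE 0.06).

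The INSIG genes, which encode the proteins that retain SCAP, went in opposite directions, and only *INSIG1* passed. *INSIG1*, itself a target of the SREBPs, stood at 74.0, 63.0 and 62.9 TPM in shEV and at 84.3, 75.4 and 75 TPM in shPAX2. The log2 fold change was 0.23 (SE 0.08). Its limma adjusted p of 0.0441 lay close to the threshold and was 0.0524 to 0.145 without any one of shEV replicates 2 and 3 and shPAX2 replicates 1, 2 and 3 (log2 fold change 0.18 to 0.26). *INSIG2* stood at 6.49, 9.59 and 16.2 TPM in shEV, a spread wider, relative to the mean, than that of any other tested member, and at 6.22, 4.62 and 4.68 TPM in shPAX2. Its log2 fold change of -0.91 (SE 0.34) did not pass, and without shEV replicate 1 it was -1.21 with a limma adjusted p of 0.0131.

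Of the 18 genes of the cholesterol arm 8 rose, 2 fell and 8 did not pass, and the median log2 fold change was 0.20. Among all genes tested 12.2% were higher and 30.5% lower. The highest log2 fold changes were those of *MSMO1*, *EBP* and *DHCR7*, followed by *SC5D* and *MVK*, both at 0.43. *MVK* acts early, in the mevalonate pathway, and the other 4 encode enzymes that modify the sterol skeleton after its rings have closed, as do *CYP51A1*, *TM7SF2* and *HSD17B7*, which did not pass. *MSMO1*, a sterol methyl oxidase on chromosome 4 (166248819 to 166264316, GRCh37), stood at 60.4, 53.4 and 57.2 TPM in shEV and at 83.7, 84.5 and 81.2 TPM in shPAX2. The mean rose from 57.0 ± 3.51 to 83.1 ± 1.73 TPM (SD, n = 3 each), 1.46 times, with a log2 fold change of 0.54 (SE 0.06). *EBP*, the sterol isomerase on chromosome X (48380187 to 48387104), stood at 119.4, 108.7 and 99.1 TPM in shEV and at 158.2, 162.9 and 154.6 TPM in shPAX2, 1.45 times as high (log2 fold change 0.54, SE 0.07). In both genes every shPAX2 library lay above every shEV library.

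*DHCR7*, which carries out the final reduction to cholesterol, stood at 101.5, 91.7 and 84.4 TPM in shEV and at 131.7, 134.0 and 126.7 TPM in shPAX2. Its log2 fold change was 0.50 (SE 0.07). *SC5D*, the desaturase just before it, stood at 22.5, 23.9 and 26.4 TPM in shEV and at 32.9, 33.2 and 32.2 TPM in shPAX2 (0.43, SE 0.07). The groups did not overlap in either gene. *NSDHL*, which acts with *MSMO1* in removing methyl groups, rose less, from 47.8 ± 4.0 to 58.3 ± 3.39 TPM (0.28, SE 0.08). Its call was lost when replicate 2 or 3 of shEV or replicate 2 of shPAX2 was left out, at log2 fold changes of 0.25, 0.25 and 0.27 (limma adjusted p 0.0559 to 0.0597).

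The promoter windows of the members are shown for *SCD*, the gene on which the list centres, its paralog *SCD5*, and the sterol genes with the highest log2 fold changes, *MSMO1* and *EBP*. Sequences are from RefSeq on GRCh38.p14, not on the build of the table, from 250 bases before to 50 bases after the start site, read 5′ to 3′ on the gene's strand. Capitals mark the NF-Y box, CCAAT on either strand. The windows lie at chr10:100346983-100347282 (plus strand) for *SCD*, chr4:82798747-82799046 (minus strand) for *SCD5*, chr4:165327419-165327718 (plus strand) for *MSMO1* and chrX:48521558-48521857 (plus strand) for *EBP*.
SCD: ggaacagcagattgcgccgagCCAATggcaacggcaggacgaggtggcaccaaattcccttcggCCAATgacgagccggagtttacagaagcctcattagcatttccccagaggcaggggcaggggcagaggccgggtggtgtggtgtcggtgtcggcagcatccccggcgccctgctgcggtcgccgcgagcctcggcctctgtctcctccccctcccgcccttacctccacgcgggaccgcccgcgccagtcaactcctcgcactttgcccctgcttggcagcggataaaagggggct
SCD5: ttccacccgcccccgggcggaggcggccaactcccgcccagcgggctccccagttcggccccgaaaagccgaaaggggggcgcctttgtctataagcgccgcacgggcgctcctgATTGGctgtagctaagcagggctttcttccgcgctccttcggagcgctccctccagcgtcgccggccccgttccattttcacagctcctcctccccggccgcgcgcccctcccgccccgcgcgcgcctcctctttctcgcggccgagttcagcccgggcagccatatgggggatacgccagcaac
MSMO1: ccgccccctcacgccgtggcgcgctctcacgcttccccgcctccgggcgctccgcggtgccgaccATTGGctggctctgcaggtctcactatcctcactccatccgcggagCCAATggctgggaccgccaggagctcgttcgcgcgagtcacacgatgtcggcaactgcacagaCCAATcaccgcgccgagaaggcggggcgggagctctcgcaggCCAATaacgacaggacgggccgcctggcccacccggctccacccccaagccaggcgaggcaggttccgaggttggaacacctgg
EBP: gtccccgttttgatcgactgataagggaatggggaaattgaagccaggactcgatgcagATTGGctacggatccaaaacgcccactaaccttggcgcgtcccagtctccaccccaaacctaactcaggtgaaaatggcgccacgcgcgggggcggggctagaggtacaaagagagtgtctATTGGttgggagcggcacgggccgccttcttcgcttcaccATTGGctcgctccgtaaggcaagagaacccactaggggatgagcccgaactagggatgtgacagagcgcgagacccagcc

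The *MSMO1* window held 4 boxes, that of *EBP* 3, that of *SCD* 2 and that of *SCD5* 1, so a gene that fell also had a box. Windows were found for 35 members, 49 in all. A box was present in 29 of the 49, against 34.6% of the 35116 windows in the table. By gene, a box was found for 13 of 15 members that rose, for 5 of the 6 with a window that fell and for 7 of the 12 with a window that did not pass. A gene with several windows was counted when any of them held a box. The share of all windows is therefore not a like comparison for the counts by gene. *ABCG1*, *FASN*, *FDFT1* and *SQLE* had no entry. A sterol response element written as TCACNCCAC on either strand was present in 1 of the 49 windows, that of *SREBF2*, and in 1.13% of all windows. The E-box CACGTG was present in 7 of the 49, and in 7.26% of all windows. The NF-Y box and the sterol element do not overlap each other in the *SREBF2* window. A match describes the letters and does not show that a factor binds there. Absence of a match does not show that a gene lacks the element, which may differ in letters or lie outside the window.

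The early steps of the cholesterol arm, which build isoprenoid units in the mevalonate pathway, did not move together. *HMGCS1*, which condenses acetyl-CoA units, stood at 138.8, 114.7 and 116.3 TPM in shEV and at 117.7, 116.3 and 115.5 TPM in shPAX2, with overlap between the groups (-0.08, SE 0.08). The kinases and the decarboxylase that follow all rose. *MVK*, mevalonate kinase, stood at 21.7, 18.8 and 19.7 TPM in shEV and at 28.7, 27.6 and 25.1 TPM in shPAX2, with no overlap (log2 fold change 0.43, SE 0.08). *PMVK*, the next kinase, rose from 38.4 ± 2.31 to 45.9 ± 3.98 TPM (0.25, SE 0.08), and *MVD*, the decarboxylase, from 62.1 ± 2.95 to 83.0 ± 13.5 TPM (0.41, SE 0.11). *PMVK* did not pass on leaving out replicate 1 (0.27) or 3 (0.20) of shEV or replicate 1 (0.19) or 2 (0.26) of shPAX2, with limma adjusted p from 0.0502 to 0.0939. *MVD* did not pass on leaving out replicate 2 (0.41) or 3 (0.37) of shEV or replicate 2 of shPAX2 (0.41), with limma adjusted p from 0.0525 to 0.0657.

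*IDI1*, the isomerase that makes the second isoprenoid unit, fell, next in the pathway to genes that rose. It stood at 147.9, 123.9 and 127.3 TPM in shEV and at 98.6, 100.7 and 102.9 TPM in shPAX2, with no overlap and a log2 fold change of -0.39 (SE 0.07). *STARD4*, which carries cholesterol between membranes, was the other gene of this arm that fell. It stood at 68.0, 63.4 and 71.4 TPM in shEV and at 57.2, 53.9 and 53.2 TPM in shPAX2, again with no overlap (-0.30, SE 0.06). Both calls held under all 16 alternatives. The annotation names 3 pseudogenes of *IDI1*, and antisense genes in the table overlap both. The study's methods name a kit that keeps strand, in their account of another line. Whether the counting used strand is not given in the sources used here.

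The 4 genes between the isoprenoid units and lanosterol, the first sterol, did not pass, nor did *CYP51A1*, which acts on lanosterol. *FDPS*, which makes farnesyl diphosphate, averaged 311.3 ± 26.0 TPM in the shEV libraries and 306.1 ± 18 TPM in the shPAX2 libraries. The annotation names 8 pseudogenes of *FDPS* and 3 of *CYP51A1*, and how the counting split reads among such copies was not tested. *FDFT1*, squalene synthase, had a log2 fold change of 0.17 (SE 0.07), *SQLE*, squalene epoxidase, 0.15 (SE 0.07), *LSS*, which closes the rings, 0.19 (SE 0.08), and *CYP51A1*, which removes the first methyl group, 0.20 (SE 0.07). *FDFT1*, *SQLE*, *LSS* and *CYP51A1* had limma adjusted p from 0.0514 to 0.0920, and all 4 passed under median-of-ratios scaling (0.26 to 0.31) and with voom on the recovered reads (0.17 to 0.22). *FDFT1*, *LSS* and *CYP51A1* also passed without shEV replicate 1 (0.23, 0.26 and 0.28), and *SQLE* without shPAX2 replicate 3 (0.20).

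*HSD17B7*, a sterol ketone reductase, and *TM7SF2*, a sterol reductase, were the other 2 of the 4 lowest in this arm. *HSD17B7* stood at 48.7, 38.0 and 37.7 TPM in shEV and at 38.0, 40.1 and 37 TPM in shPAX2 (-0.10, SE 0.10). The annotation names 2 pseudogenes of it. *TM7SF2* stood at 67.4, 66.1 and 58.8 TPM in shEV and at 57.3, 61.9 and 61.3 TPM in shPAX2 (-0.09, SE 0.07), and it overlaps *VPS51* on the same strand. The groups overlapped in both genes, and both turned positive under median-of-ratios scaling (0.0111 and 0.0225).

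**Figure D2:**
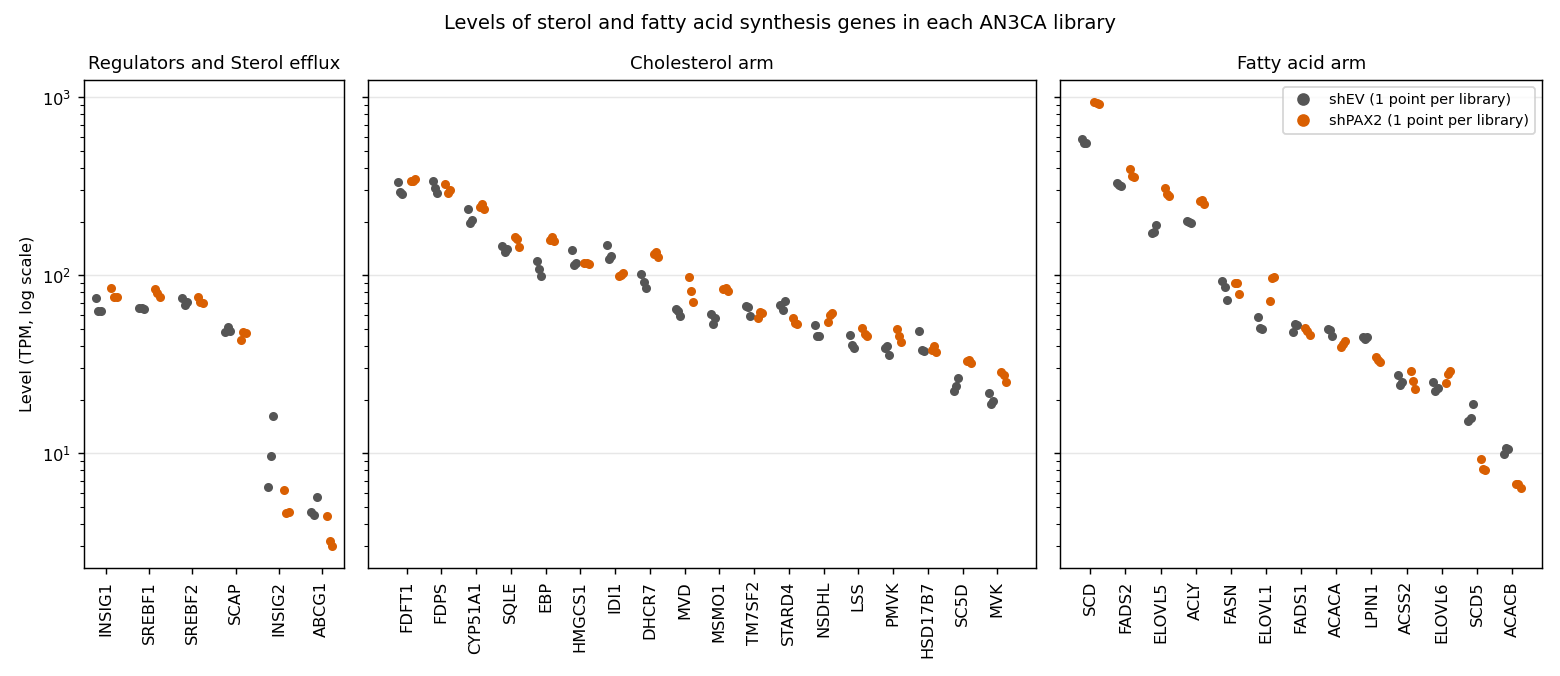
TPM of each tested member (y axis, log scale) in each library (1 point, grey for shEV and orange for shPAX2), with genes (x axis) ordered by their mean within a panel. Members ran from a mean of 743.2 TPM over the 6 libraries for *SCD* to 4.25 TPM for *ABCG1*; *ME1* and *ABCA1* are left out, since they were at 0 in most libraries.

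Within the control group, 1 library was often the highest for cholesterol genes. ShEV replicate 1 had the highest TPM of the 3 shEV libraries in 15 of the 18 genes of the arm, which is 83.3%, while it was the highest in 38.0% of all genes tested. Its median deviation from the shEV mean was 0.13 on the log2 scale over the 18 genes and 0.01 over all genes. In the fatty acid arm it was the highest in 8 of 13 genes, with a median deviation of 0.03. Among the shPAX2 libraries, the highest was replicate 1 in 8, replicate 2 in 7 and replicate 3 in 3 of the 18 cholesterol genes. In the fatty acid arm shPAX2 replicate 1 was the highest in 8 of 13 genes (61.5%, against 36.0% of all genes), with a median deviation of 0.04. ShEV replicate 1 was also the library with the fewest reads, and the part of depth in this was not tested. Without it, the median of the cholesterol arm lay 0.36 above that of all genes, compared with 0.30 with all 6 libraries.

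The fatty acid arm held the largest increases and the largest decrease that passed among the members. Of 14 genes 13 were tested, of which 5 rose, 4 fell and 4 did not pass, with a median log2 fold change of 0.05. *SCD*, the delta-9 desaturase that turns saturated into monounsaturated fatty acids, is a gene of chromosome 10 (102106990 to 102124583 on GRCh37, plus strand), 370.6 kb before the start of *PAX2*. It was the most abundant member, at rank 146 of all genes. It stood at 579.3, 550.6 and 554.5 TPM in shEV and at 938.6, 926.6 and 909.7 TPM in shPAX2, from 17006 to 27383 reads and from 48540 to 78545 reads. The mean went from 561.5 ± 15.6 to 925.0 ± 14.5 TPM (SD, n = 3 each), 1.65 times, and the log2 fold change was 0.72 (SE 0.05). The annotation names 1 pseudogene of *SCD*. Since *SCD* led to the list, no p is given for it. Without it, 21 of 36 members passed, and 8 of 12 in its arm, against 42.8% of all genes tested. The median over the 488 genes of chromosome 10 that were tested was -0.13.

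*SCD5*, the other human delta-9 desaturase, went the opposite way. It lies on chromosome 4 (83550692 to 83719949, minus strand) and stood at 15.1, 15.8 and 19.0 TPM in shEV and at 9.28, 8.17 and 8.07 TPM in shPAX2. The groups did not overlap, and the mean fell from 16.7 ± 2.09 to 8.51 ± 0.673 TPM (log2 fold change -0.92, SE 0.10). *SCD* was thus 29.1 to 38.3 times as abundant as *SCD5* in shEV libraries and 101 to 113 times as abundant in shPAX2 libraries. *SCD* made up 34.4% to 35.1% of the summed TPM of the fatty acid arm in shEV and 41.6% to 42.2% in shPAX2.

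Of the 3 elongases among the members, which add carbon units to fatty acids, *ELOVL1* and *ELOVL5* rose and *ELOVL6* did not pass. *ELOVL1*, which acts on saturated and monounsaturated very long chains, stood at 58.4, 50.2 and 49.6 TPM in shEV and at 71.4, 96.9 and 97.3 TPM in shPAX2. The log2 fold change was 0.73 (SE 0.13), and shPAX2 replicate 1 lay between the shEV libraries and the other 2 shPAX2 libraries. *ELOVL5*, which acts on polyunsaturated chains, stood at 172.2, 174.5 and 190.4 TPM in shEV and at 307.4, 285.5 and 277.8 TPM in shPAX2 (0.70, SE 0.07). It lies on chromosome 6 (53132196 to 53213977), where 62.1% of the 634 genes tested were higher. Their log2 fold changes centred on 0.39 (median), compared with -0.12 off that chromosome. The value of *ELOVL5* lay between the upper quartile (0.60) and 0.94, which 1 in 20 genes of that chromosome exceed, and the part of the chromosome in its change was not tested. *ELOVL6*, which elongates palmitate, did not pass at 0.20 (SE 0.08, limma adjusted p 0.0608). It passed without shEV replicate 1 (0.25) and without shPAX2 replicate 1 (0.26), and under median-of-ratios and quantile scaling (0.31 and 0.30).

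**Figure D3:**
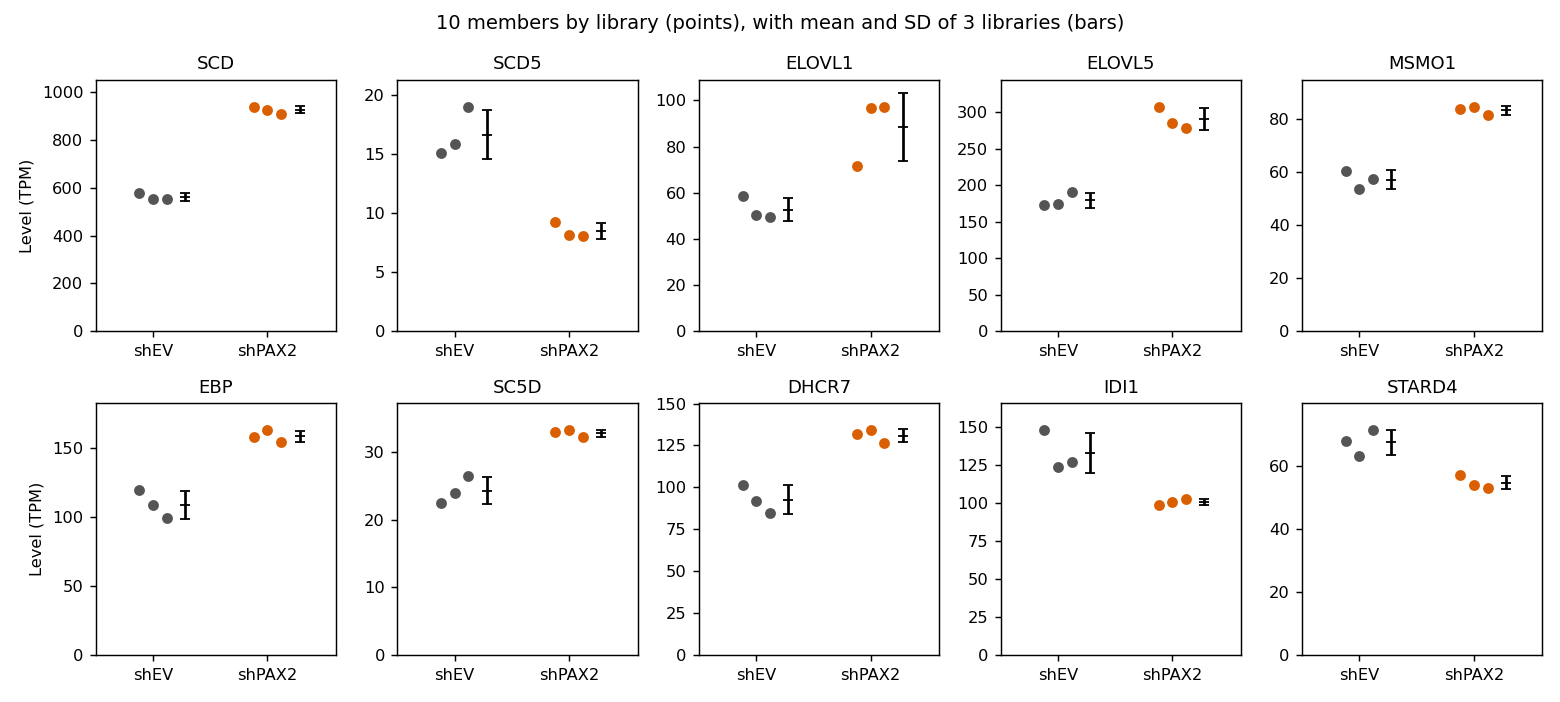
TPM (y axis, from 0) of 10 members in shEV and shPAX2 libraries (points), with mean and SD of 3 libraries (black bars). The groups are apart in all 10 panels; *SCD5*, *IDI1* and *STARD4* are lower in shPAX2 and the other 7 are higher.

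Enzymes that supply and commit carbon to fatty acids were split. *ACLY*, which makes cytosolic acetyl-CoA from citrate, stood at 202.6, 198.8 and 195.3 TPM in shEV and at 260.5, 263.0 and 252.2 TPM in shPAX2 and rose by a log2 fold change of 0.38 (SE 0.05). Both acetyl-CoA carboxylases, which make malonyl-CoA, fell. *ACACA*, the cytosolic form, stood at 50.0, 49.5 and 45.5 TPM in shEV and at 39.7, 41.2 and 42.8 TPM in shPAX2 (-0.23, SE 0.06). Its call was lost on leaving out replicate 1 (-0.20) or 2 (-0.21) of shEV or replicate 2 of shPAX2 (-0.22), and under median-of-ratios scaling (-0.11). *ACACB*, the mitochondrial form, whose malonyl-CoA restrains fatty acid uptake into mitochondria, stood at 9.91, 10.7 and 10.5 TPM in shEV and at 6.73, 6.69 and 6.36 TPM in shPAX2. No library of one group reached the other, and the log2 fold change was -0.62 (SE 0.08). *ACACB* overlaps *UNG* on the same strand.

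*FASN*, fatty acid synthase itself, did not pass, with 83.7 ± 10.2 TPM in the shEV libraries and 86.5 ± 6.98 TPM in the shPAX2 libraries (log2 fold change 0.05, SE 0.10). *ACSS2*, which makes acetyl-CoA from acetate, was at 25.6 ± 1.66 and 25.9 ± 3.0 TPM and did not pass either. The polyunsaturated desaturases lie side by side on chromosome 11 and overlap on opposite strands, and *FADS2* also overlaps *FEN1* on the same strand. *FADS2* rose from 321.6 ± 5.48 to 369.4 ± 22.3 TPM (0.20, SE 0.06), and its call was lost without any one of shEV replicates 1, 2 and 3 and shPAX2 replicate 2 (0.19 to 0.22, limma adjusted p 0.0509 to 0.0853) and under quantile scaling (0.14). *FADS1* was at 51.2 ± 2.67 and 48.3 ± 2.45 TPM and did not pass. *LPIN1*, a phosphatidate phosphatase that leads to triglycerides, stood at 44.9, 43.9 and 44.9 TPM in shEV and at 34.6, 33.5 and 32.5 TPM in shPAX2 and fell without overlap (-0.40, SE 0.05). *ME1*, the cytosolic malic enzyme that supplies NADPH, was above 0 only in shPAX2 replicate 3, at 0.0291 TPM, too low at this depth to detect a difference.

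Summed over the members, the fatty acid arm went from 1617.8 ± 30.1 TPM in shEV to 2209.5 ± 50.8 TPM in shPAX2, 1.37 times, and without *SCD* from 1056.3 ± 14.9 to 1284.5 ± 36.3 TPM, 1.22 times. The cholesterol arm went from 1890.3 ± 140.3 to 2083.9 ± 46.0 TPM, 1.10 times. Its shEV replicate 1, at 2051.3 TPM, lay above shPAX2 replicate 3, at 2036.2 TPM, so the sums of this arm overlapped between the groups while those of the fatty acid arm did not. The sums are carried by the most abundant genes and are a description.

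The efflux genes, which export sterols and are known as targets of the LXR receptors, were low. *ABCA1* was at most 0.00976 TPM in a library, so no difference was detectable. *ABCG1* stood at 4.65, 4.49 and 5.65 TPM in shEV and at 4.46, 3.21 and 3.01 TPM in shPAX2, from 90 to 184 reads and from 106 to 246 reads. The highest shPAX2 library lay just under the lowest shEV library. The log2 fold change of -0.43 (SE 0.15) passed narrowly, with a limma adjusted p of 0.0478. It did not pass with the replicate number as a block (0.0709), nor in 10 other of its 15 alternatives, among them the fits without shEV replicate 1 (-0.47), shEV replicate 2 (-0.49), shEV replicate 3 (-0.34), shPAX2 replicate 2 (-0.37) and shPAX2 replicate 3 (-0.33).

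Other lipid genes were taken from lists set by pathway. Fatty acid oxidation, which breaks fatty acids down, held only decreases among its calls, with 9 of 14 genes lower, none higher and a median of -0.28. *CPT1A*, which admits fatty acids to mitochondria and is inhibited by malonyl-CoA, fell most, from 33.6 ± 0.535 to 19.4 ± 1.29 TPM (SD, n = 3 each; log2 fold change -0.78, SE 0.07, limma adjusted p 3.84e-05). *HADH* was the highest of the list, at 0.01 (SE 0.07). With 30.5% of all genes lower and a median of -0.10, decreases were common throughout.

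Other genes of elongation and desaturation gave 4 higher and 1 lower of 8 tested, with *ELOVL4* the highest (0.91, SE 0.06, limma adjusted p 1.14e-05) and *HACD1* the lowest (-0.37, SE 0.08). *ELOVL4*, an elongase of very long chains, lies on chromosome 6. Other SREBP-responsive genes gave 3 higher and 2 lower of 10, with *ACAT2*, an acetyl-CoA acetyltransferase also on chromosome 6, the highest (0.59, SE 0.09) and *AACS* the lowest (-0.29, SE 0.06). Of 7 genes that process or degrade the SREBP machinery, *ERLIN1* rose (0.33, SE 0.10) and *ERLIN2* fell (-0.21, SE 0.07), both parts of 1 membrane complex, and the other 5 did not pass. For comparison, 12.2% of all genes tested were higher and 30.5% lower.

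Of the 9 genes of the isoprenoid branch 2 rose and 1 fell. *PDSS2* (0.44, SE 0.07) and *NUS1* (0.44, SE 0.07), the pair that rose, lie on chromosome 6, and *FNTA*, a subunit of protein farnesyltransferase, was the lowest (-0.21, SE 0.07). Of 5 genes for the LXR receptors and their targets, *LPCAT3* rose (0.19, SE 0.06) and *SMPDL3A* fell, from 3.82 ± 0.955 to 2.01 ± 0.146 TPM (-0.76, SE 0.17), although *SMPDL3A* is on chromosome 6. *MYLIP*, which marks lipoprotein receptors for degradation, is also on chromosome 6. It had the highest value of the 5 (0.25, SE 0.14) and did not pass. Of 3 genes for sterol storage and release, *NPC2*, which hands cholesterol out of lysosomes, fell (-0.45, SE 0.07), while *SOAT1*, which esterifies it, was the highest at 0.04 (SE 0.07) and did not pass. Over these 7 lists, 27 of 56 tested genes passed, 11 higher and 16 lower, a share of 48.2% that was near the 42.8% of all genes.

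**Figure D4:**
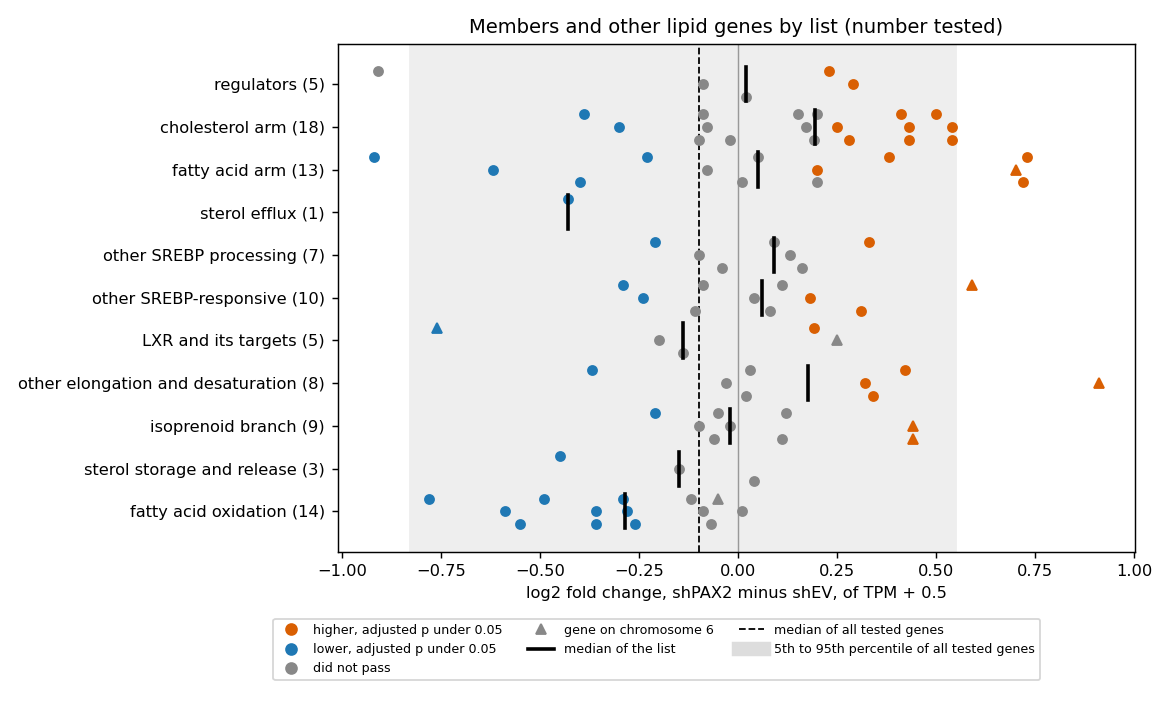
Log2 fold change of TPM + 0.5 (x axis, shPAX2 minus shEV) of each tested gene in the 4 groups of members and in 7 other lipid lists (y axis, number tested in brackets), with colours for calls at a limma adjusted p under 0.05 and triangles for genes on chromosome 6. Black ticks are list medians, from 0.20 for the cholesterol arm to -0.43 for the single tested efflux gene, the dashed line is the median of all genes and the band the same range of all genes as in the plot of single members; fatty acid oxidation has 9 lower genes and no higher one.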

How the data were processed

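RNA-seq values of 6 AN3CA libraries, 3 shEV and 3 shPAX2, were analysed from 1 table. The authors deposited TPM, with gene length and library total already divided out. The submitters' processing notes name bcl2fastq, STAR, Subread, featureCounts, edgeR and the build hg19 (GRCh37), and versions are not given in the sources used here; the methods' account of RSEM is for another line. Whole reads were recovered from the TPM ratios between libraries for 100.0% of genes, and give the depths. They hold up to a factor common to a gene's libraries. The largest relative deviation from whole-number ratios was 7.15e-14. The search stopped only within a set closeness, so this value was small by construction and does not check the recovery.

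Fits used limma 3.58.1 in R 4.3.3 (lmFit and eBayes, trend and robust on). The values were log2(TPM + 0.5), the test was two-sided and the contrast was 3 shPAX2 minus 3 shEV libraries, with Benjamini-Hochberg adjustment over all 13163 genes with at least 0.5 TPM in at least 3 libraries; this understates fold changes of low genes. The fit and the read recovery ran on the whole table, and the fit was tested on simulated data. The simulation held few changed genes, as many up as down, with larger fold changes than those of the members. It therefore does not check the calls reported here. The members and lists were chosen with earlier results of these data known. Named were all members; per-library values were given for the regulators, *SCD*, *SCD5*, the efflux genes and the 4 highest and 4 lowest of each arm, with the highest and lowest gene of each other list. *HACD1*, *HACD2* and *HACD3* were read under older symbols; *HACD4* and *PECAM1* were not analysed here. Gene positions are from GENCODE on GRCh37, promoters from RefSeq on GRCh38.p14. The alternatives were other pseudocounts (0.1 and 1), filters (none, 5 TPM), scalings (median-of-ratios, quantile, without the 10 most abundant genes), moderation, a replicate block, voom on the recovered reads and leaving out each library.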

Additional observations from a re-analysis of the deposited data

How the results depend on the processing

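*PAX2* passed in all 15 alternatives that could test it; the filter at 5 TPM removed it. Of the 22 members that passed, 15 passed in every alternative run for them and none changed direction; the other 7 (*INSIG1*, *PMVK*, *MVD*, *NSDHL*, *ACACA*, *FADS2* and *ABCG1*) lost the call in some. Of the 15 that did not pass, 6 passed under an alternative. The count of genes past a log2 fold change of 1 was 598 of 13163 tested. It moved to 303 of 10633 tested with the filter at 5 TPM, and leaving out 1 library gave 484 to 610. The count of regulators was 2 and became 1 with no filter, with quantile normalization and without trend or robust moderation, and 1 to 3 with a library left out. The cholesterol arm gave 10 genes, 7 to 12 with a library left out, and 14 (12 higher, 2 lower) under median-of-ratios scaling; its median above all genes, 0.30, moved to 0.18 under quantile normalization and was 0.25 to 0.36 with a library left out. The fatty acid arm gave 9, 7 to 10 with a library left out, and 6 higher and 3 lower under median-of-ratios scaling; its median above all genes, 0.15, was 0.0900 to 0.22 with a library left out, lowest without shEV replicate 3 and highest without shEV replicate 1 or shPAX2 replicate 3. In each case the cause was not tested.

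Members that did not pass and changed sign did so close to 0. Under median-of-ratios scaling *SCAP* was 0.0234, *HMGCS1* 0.0370, *FDPS* 0.0902, *TM7SF2* 0.0225, *HSD17B7* 0.0111 and *FADS1* 0.0285, and with voom *FDPS* was 9.62e-06. Leaving out 1 library at a time, *SREBF2* ran from -0.0130 to 0.0498 and was below 0 without shPAX2 replicate 1 or shEV replicate 2. *HMGCS1* ran from -0.12 to 0.0126 and *HSD17B7* from -0.16 to 0.0194, both above 0 only without shEV replicate 1. *FDPS* ran from -0.0783 to 0.0404 and was above 0 without shEV replicate 1 or shPAX2 replicate 2. *ACSS2* ran from -0.0724 to 0.0906, below 0 without shPAX2 replicate 1 or shEV replicate 2, and *FASN* from -0.0481 to 0.13, below 0 only without shEV replicate 3.

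Replicate numbers were shared by the groups. Over all genes tested the deviations of same-numbered libraries correlated at -0.0523, 0.0815 and 0.0014, so no pairing showed across the table as a whole. In single members a replicate block moved the SE either way, from 0.10 to 0.06 in *FASN* and from 0.13 to 0.16 in *ELOVL1*. Pairing among the members was not tested. With the replicate block 5112 genes passed in place of 5629, among the members *LSS* passed (0.19) and *ABCG1* did not (-0.43), and *PAX2* stayed at -1.47. Depth limits *ME1* and *ABCA1*.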
